A study of Rattus norvegicus with 24 samples.

Results

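The dual-specificity MAP kinase phosphatases described here are 9 genes, Dusp1, Dusp2, Dusp4, Dusp5, Dusp6, Dusp8, Dusp10, Dusp16 and Dusp26, out of 15273 genes measured in the tibialis anterior (TA), the ankle dorsiflexor of the rat lower leg. They were taken by gene symbol, and as a group they were chosen by their measured differences between trained and contralateral muscle and between trained muscles. Those differences are therefore given below as a description, and a threshold call on a member is not read as a test. Dusp2 differed most between the limbs: its mean was 0.198 in 12 contralateral muscles and 5.04, 14, 6.82 and 2.38 after 2, 10, 20 and 30 days of training (n = 3 each). Dusp26, the most abundant member, had a mean of 106 after 2 days and 43.8 after 30 days of training against 83.4 in contralateral muscle.

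The muscles came from 12 adult male Wistar rats trained daily for 2, 10, 20 or 30 days by SpillOver exercise, in which an implanted pulse generator stimulates the common peroneal nerve strongly enough that current also reaches the adjacent tibial nerve. The antagonist plantarflexors then contract together with the TA and load it. Only the left limb was stimulated, and the right TA of the same rat, which was not stimulated, served as the contralateral control, so each group held 3 muscles and each rat gave a trained and a contralateral muscle. Muscles were taken 1 h after the last bout, so a contralateral muscle belongs to a rat that had just exercised the other leg and is not a muscle of an untrained animal.

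MAP kinases (ERK, JNK and p38) are switched on by phosphorylation of a threonine and a tyrosine in the activation loop. Dual-specificity phosphatases remove both phosphates and switch the kinase off. Several of them are themselves induced by MAP kinase activity, which makes them negative feedback regulators. Contraction of skeletal muscle is known to activate all 3 kinase families. The members differ in location and substrate. Dusp1, Dusp2, Dusp4 and Dusp5 are nuclear and inducible, Dusp6 is cytoplasmic and prefers ERK, Dusp8, Dusp10 and Dusp16 prefer JNK and p38, and Dusp26 is a small atypical member.

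All values were treated as TPM, a transcript's reads per length as a share of the library, because all deposited columns had equal totals. Equal totals alone do not show that the values were divided by transcript length. The values were summed per gene and rescaled between muscles by median-of-ratios factors, called scaled TPM here. The table holds no counts, so the number of reads behind each value cannot be read from it. Scaling factors ran from 0.778 to 1.14. Mitochondrially encoded mRNA made up 27.8% to 34.6% of the total in 11 contralateral muscles and 43.7% in replicate 1 of the 30 days contralateral group, the library that stands apart. It made up 39.9% to 43.9% in the 30 days trained muscles. Markers of muscle fibres summed to 67800 to 82200 in the contralateral muscles and 54500 to 94100 in the trained ones, 7 of 8 listed markers being in the table. Of 11196 genes with at least 1 TPM in at least 3 muscles, 3235, 3240, 2393 and 2304 changed after 2, 10, 20 and 30 days (limma, adjusted p under 0.05). The rising share of those calls was 53.4%, 53.9%, 54.9% and 54.0%, and without the rescaling it was 74.5%, 75.4%, 61.0% and 20.0%, with the median of all genes at 0.07, 0.07, -0.03 and -0.18 on the log2 scale.

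All 9 members passed the filter on low values. Dusp2, Dusp4 and Dusp5 were under 1 in every contralateral muscle and passed through trained muscles alone. Each member is represented by a single protein-coding transcript except Dusp26, for which a retained-intron transcript made up 4.88% of the value. Fewer cells of a type and less RNA per cell cannot be told apart in these whole-muscle samples.

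The highest trained mean stood at 10 days for Dusp1, Dusp2, Dusp4, Dusp5, Dusp6, Dusp10 and Dusp16. Promoter stretches are shown for Dusp1, Dusp2 and Dusp5, the inducible nuclear members among these for which a promoter sequence was found, and they were picked to show motif matches. RefSeq windows of 300 bases on the GRCr8 build, 250 before and 50 after the start, were found for 7 of the 9 members, and none for Dusp4 and Dusp26. Each line gives a stretch before the start on the gene strand, 5′ to 3′. Capitals mark matches to the cAMP response element TGACGTCA, its core TGACG or CGTCA, the E-box CACGTG and the CArG box, the element bound by serum response factor.
Dusp1, chr10:17184673-17184762, plus strand: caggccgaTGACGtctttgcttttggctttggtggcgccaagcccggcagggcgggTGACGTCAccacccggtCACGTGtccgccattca
Dusp2, chr3:135009486-135009545, plus strand: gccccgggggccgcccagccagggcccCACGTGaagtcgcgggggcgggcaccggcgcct
Dusp5, chr1:262543664-262543733, plus strand: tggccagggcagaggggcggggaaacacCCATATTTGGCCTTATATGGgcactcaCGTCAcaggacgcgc

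Dusp1 held the full cAMP response element starting 124 bases before the start, a match found on either strand in 1.83% of 33469 windows. Its core alone, which the full element contains, occurred in 21.2% of windows and in Dusp1, Dusp2, Dusp5 and Dusp16. Dusp5 held a pair of adjacent CArG boxes starting 82 and 72 bases before the start, where 1.64% of windows hold any. The E-box occurred in Dusp1 and Dusp2 and in 6.42% of windows. GAANNTTC, a pair of heat shock element units, occurred in Dusp16 and in 8.59% of windows. No match was found in these 7 windows for TGACTCA, the AP-1 element (4.63% of windows), for the NF-kappaB motif (6.15%), for the ETS site CCGGAAGT (3.81%) or for TATAAA (14.2%). A match is a description of letters, and no binding was measured.

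In the 12 contralateral muscles the members spanned a wide range of levels. Comparing levels between genes assumes that the values are per transcript length. Dusp26 was the highest at 83.4 ± 11.2 (SD, n = 12), followed by Dusp1 at 20.7 ± 9.15, Dusp10 at 8.96 ± 2.11 and Dusp8 at 6.46 ± 1.26. Dusp16 had 3.70 ± 0.984, Dusp6 2.54 ± 0.563, Dusp4 0.619 ± 0.186, Dusp5 0.354 ± 0.17 and Dusp2 0.198 ± 0.147. Each of the 8 neighbouring pairs in this order differed (exact sign-flip permutation test over 12 muscles, two-sided, adjusted p from 0.000977 to 0.0259). The largest adjusted p in that test was for Dusp16 and Dusp6, with Dusp16 higher in 10 of 12 muscles and a mean log2 difference of 0.39. The smallest mean log2 difference was 0.18, between Dusp5 and Dusp2, with Dusp5 higher in 9 of 12 muscles. The order was taken from the same muscles, whose values were also 1 side of the choice of members. Dusp4, Dusp5 and Dusp2 passed the filter on low values through trained muscles alone. Their place at the bottom of the order is therefore a description, and the tests that involve them are not read. The most variable members from muscle to muscle were Dusp2, with a coefficient of variation of 74.3%, Dusp5 with 47.9% and Dusp1 with 44.2%, and the least variable was Dusp26 with 13.4%.

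**Figure D1:**
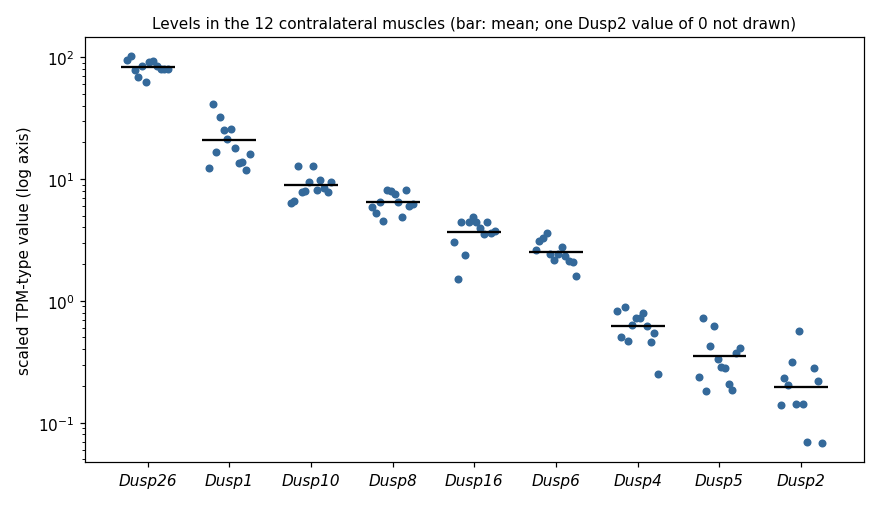
Scaled TPM (log axis) of the 9 members in the 12 contralateral muscles, with each point 1 muscle and the bar the mean. Levels fell from 83.4 for Dusp26 to 0.198 for Dusp2, and a single Dusp2 value listed at 0 cannot be drawn on this axis.

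Whether the contralateral muscles themselves differed with the training duration of the other leg was tested, since the choice of the members did not use that contrast. The 6 members with at least 1 TPM in at least 3 contralateral muscles gave 0 calls (limma F test, adjusted p of at least 0.474), and the lowest unadjusted p were 0.0582 for Dusp6 and 0.0613 for Dusp26. Over all genes this test called 7 of 10517, or 0.0666%, and 1153 were under 0.05 before adjustment. Dusp1 had contralateral means of 23.5, 26.3, 19.1 and 13.9 at 2, 10, 20 and 30 days, a spread that did not pass (limma F test, adjusted p = 0.593). Dusp2, Dusp4 and Dusp5 were too low in contralateral muscle to be tested.

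Members were also compared with each other across the 12 contralateral muscles. Dusp8 and Dusp16, both selective for JNK and p38, had Pearson's r = 0.76 (permutation p = 0.00178, adjusted over 36 pairs 0.0641) and Spearman's rho = 0.85 (permutation p = 0.00096, adjusted 0.0346). Without the 2 muscles farthest from the median r was 0.81 (adjusted permutation p = 0.0054), and with each duration centred it was 0.77 (adjusted permutation p = 0.0616). The Pearson value misses the threshold after adjustment and the Spearman value passes it. No other pair passed on either measure. An unadjusted permutation p under 0.05 was found for 4 of 36 Pearson values and 1 Spearman value. That Spearman value and 1 of these Pearson values were those of Dusp8 and Dusp16. The pair Dusp1 and Dusp5 had r = 0.72 and rho = 0.57 (adjusted permutation p = 0.142 and 0.531), and r was 0.47 without the 2 farthest muscles.

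Dusp2, a nuclear phosphatase first known from activated blood cells, lies at chr3:119776925-119779100 on the plus strand of Rnor_6.0, the build of the table. Contralateral values ran from 0 through a median of 0.173 to 0.563. The 2 days trained muscles had 5.06, 6.33 and 3.74, the 10 days muscles 15.5, 14.6 and 12, the 20 days muscles 6.52, 9.74 and 4.19 and the 30 days muscles 2.46, 2.96 and 1.71. All 12 trained muscles lay above all 12 contralateral ones, and above the other leg of the same rat in 12 of 12 rats. The 10 days muscles did not overlap with those of any other duration, and the 30 days muscles lay below all other trained groups.

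The ratio of Dusp2 means to contralateral muscle was 25.5, 70.9, 34.5 and 12 at 2, 10, 20 and 30 days. On the scale of log2(value + 1), which understates the change of so low a gene, the fold change was 2.32, 3.65, 2.65 and 1.49 (SE 0.16). With a pseudocount of 0.1 it was 4.23, 5.71, 4.61 and 3.18. Between trained durations the log2 difference was 1.33 from 2 to 10 days and -2.16 from 10 to 30 days (SE 0.20). Dropping 20 days trained replicate 2 or 3 put the 20 days value at 2.39 or 2.92.

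Since Dusp2 is known from blood cells, the markers of those cells are set beside it. The sum of 9 macrophage markers was 9.66 to 28.3 in contralateral muscles and 31.1 to 71.5, 33 to 77.0, 48.3 to 54.9 and 40.8 to 58.3 after 2, 10, 20 and 30 days. All trained muscles were above all contralateral ones in that sum, as for Dusp2, and the part of these cells in the Dusp2 values was not tested. The median macrophage sum was 61.9 at 10 days and 51.8 at 30 days, where mean Dusp2 was 14 and 2.38. The T and NK cell markers, 2 of 5 in the table, summed to at most 0.592 in any muscle, and the neutrophil markers, 3 of 4, to at most 2.52.

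**Figure D2:**
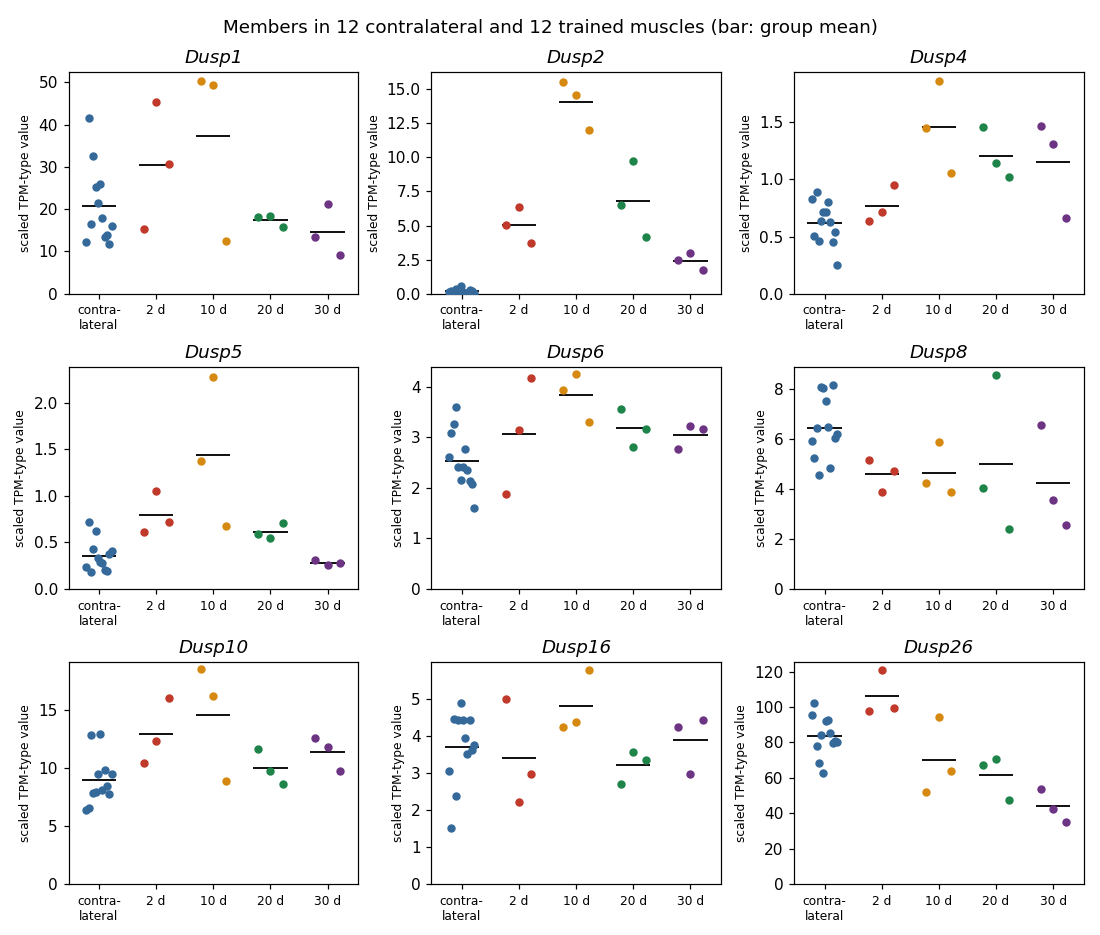
Scaled TPM of each member in 12 contralateral muscles and in 3 trained muscles per duration, with each point 1 muscle and the bar the group mean. Dusp2 is the single member whose 12 trained muscles all lie above the 12 contralateral ones, with values from 1.71 to 15.5 against at most 0.563.

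Dusp1 (chr10:16970626-16973419, plus strand), an immediate-early gene whose product acts on all 3 kinase families, did not separate the limbs at any duration. Contralateral values ran from 11.8 through a median of 17.3 to 41.6. Trained values were 15.3, 45.4 and 30.7 at 2 days, 50.4, 49.3 and 12.5 at 10 days, 18.1, 18.4 and 15.8 at 20 days, and 13.5, 21.3 and 9.07 at 30 days. A pair of 10 days muscles exceeded every contralateral muscle, and the third was near the lowest. The log2 fold change was 0.51, 0.70, -0.14 and -0.45 (SE 0.37), and the 10 days value was 1.33 without replicate 3. Against the contralateral muscles of the same duration it was 0.42, 0.28, -0.08 and 0.01, so the lower value at 30 days depended on which controls were used. The rat with the highest 2 days trained value, 45.4, also had the highest contralateral value, 41.6.

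Dusp4 (chr16:61078175-61091170, minus strand), a nuclear phosphatase, was low throughout. Contralateral values ran from 0.25 through 0.631 to 0.892, and trained values were 0.635, 0.719 and 0.955 at 2 days, 1.45, 1.86 and 1.06 at 10 days, 1.46, 1.14 and 1.02 at 20 days and 1.47, 1.31 and 0.664 at 30 days. The 10 and 20 days groups lay above the contralateral range and the other groups overlapped with it. Its log2 fold change was 0.13, 0.60, 0.45 and 0.40 (SE 0.12), and 11 of 12 rats had the higher value in the trained leg. The ratio of means was 1.24, 2.35, 1.95 and 1.85, so log2(value + 1) understates the change as for Dusp2. With a pseudocount of 0.1 the log2 fold change was 0.31, 1.13, 0.9 and 0.78.

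Dusp5 (chr1:274245184-274258596, plus strand), a nuclear phosphatase specific for ERK, followed a course with a maximum at 10 days and a return by 30 days. Contralateral values ran from 0.183 through 0.307 to 0.722. Trained values were 0.609, 1.05 and 0.717 at 2 days, 1.37, 2.28 and 0.672 at 10 days, 0.587, 0.548 and 0.704 at 20 days and 0.309, 0.262 and 0.273 at 30 days. Every group overlapped with the contralateral range, although the trained leg was higher in all rats at 2, 10 and 20 days. The 30 days muscles lay below the trained muscles of all shorter durations. The log2 fold change was 0.41, 0.81, 0.26 and -0.07 (SE 0.14). Its 10 days value was 0.57 without replicate 2 and 1.05 without replicate 3. The ratio of means was 2.24, 4.07, 1.73 and 0.794, so log2(value + 1) understates the change as for Dusp2. With a pseudocount of 0.1 the log2 fold change was 1.03, 1.7, 0.73 and -0.17.

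Dusp6 (chr7:41475163-41479393, plus strand), the cytoplasmic ERK phosphatase, varied little. Contralateral values ran from 1.60 through 2.41 to 3.61. Trained values were 1.87, 3.15 and 4.17 at 2 days, 3.94, 4.26 and 3.31 at 10 days, 3.56, 2.81 and 3.17 at 20 days and 2.76, 3.22 and 3.16 at 30 days. All trained groups overlapped with the contralateral range, and 11 of 12 rats had the higher value in the trained leg. On the log2 scale the fold change was 0.18, 0.46, 0.25 and 0.21 (SE 0.15), and against 30 days contralateral muscles alone the 30 days value was 0.47.

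Dusp8, Dusp10 and Dusp16, which prefer JNK and p38, did not move together. Dusp8 (chr1:215030429-215033461, minus strand) was lower in the trained leg in 11 of 12 rats. Its contralateral values ran from 4.55 through 6.32 to 8.15, and trained values were 5.16, 3.89 and 4.70 at 2 days, 4.23, 5.87 and 3.87 at 10 days, 4.02, 8.57 and 2.39 at 20 days and 6.55, 3.55 and 2.56 at 30 days. All 4 trained groups overlapped with the contralateral range, and the 20 days group held both the highest value of all muscles, 8.57, and the lowest, 2.39. As log2 fold changes these were -0.40, -0.40, -0.43 and -0.57 (SE 0.22), and the 20 days value was -0.84 without replicate 2.

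Dusp10 (chr13:104284660-104321456, plus strand) had contralateral values from 6.40 through 8.28 to 12.9. Trained values were 10.4, 12.3 and 16 at 2 days, 18.5, 16.2 and 8.90 at 10 days, 11.6, 9.77 and 8.58 at 20 days and 12.6, 11.8 and 9.77 at 30 days. Each trained group overlapped with the contralateral range, and the same 10 days muscle, replicate 3, was the lowest of its group for Dusp1, Dusp2, Dusp4, Dusp5, Dusp6, Dusp8 and Dusp10. The log2 fold change was 0.49, 0.61, 0.16 and 0.34 (SE 0.19), with the trained leg higher in 9 of 12 rats.

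Dusp16 (chr4:168472412-168517178, minus strand) had contralateral values from 1.52 through 3.85 to 4.89. Trained values were 5, 2.22 and 2.96 at 2 days, 4.23, 4.39 and 5.78 at 10 days, 2.71, 3.57 and 3.35 at 20 days and 4.24, 2.98 and 4.44 at 30 days. No group separated from the contralateral range, and the trained leg was higher in 5 of 12 rats. The log2 fold change was -0.11, 0.33, -0.13 and 0.08 (SE 0.20).

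Dusp26 (chr16:64798778-64806051, minus strand), the atypical member and the most abundant in this muscle, had a trained mean above the contralateral mean at 2 days and below it at 10, 20 and 30 days. Contralateral values ran from 62.5 through 82.4 to 102. Trained values were 97.9, 121 and 99.7 at 2 days, 52.2, 94.2 and 63.6 at 10 days, 67.5, 70.7 and 47.3 at 20 days and 53.6, 42.6 and 35.3 at 30 days. The 30 days muscles lay below all 12 contralateral muscles, and the 2 days muscles lay above every other trained muscle. All 3 rats at 2 days and 2 of 3 at 10 days had the higher value in the trained leg, whereas all 6 rats at 20 and 30 days had the lower.

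The log2 fold change of Dusp26 was 0.35, -0.28, -0.44 and -0.92 (SE 0.16), and the difference from 2 to 30 days of training was -1.27 (SE 0.20). Against the contralateral muscles of the same duration the 10 days value was -0.07, so the lower mean at 10 days depended on which controls were used. Without the rescaling the 30 days value was -1.14 and the difference from 2 to 30 days was -1.60. Without replicate 1 of the 30 days contralateral group, contralateral Dusp26 was 83.8 ± 11.7 (SD, n = 11). The mitochondrial share given above was high in the same 30 days trained muscles, and its part in the Dusp26 values was not tested. Muscle fibre markers summed to 66300 to 73500 in those muscles, within or just under the contralateral range. That sum hides opposite moves of single markers past the threshold. Mean Pvalb went from 2320 in contralateral muscle to 286 after 30 days, Ckm from 15500 to 11400 and Mb from 6690 to 10400. Acta1, Tnnt3, Des and Mylpf were not past it. The part of fibre composition in the Dusp26 values was not tested.

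**Figure D3:**
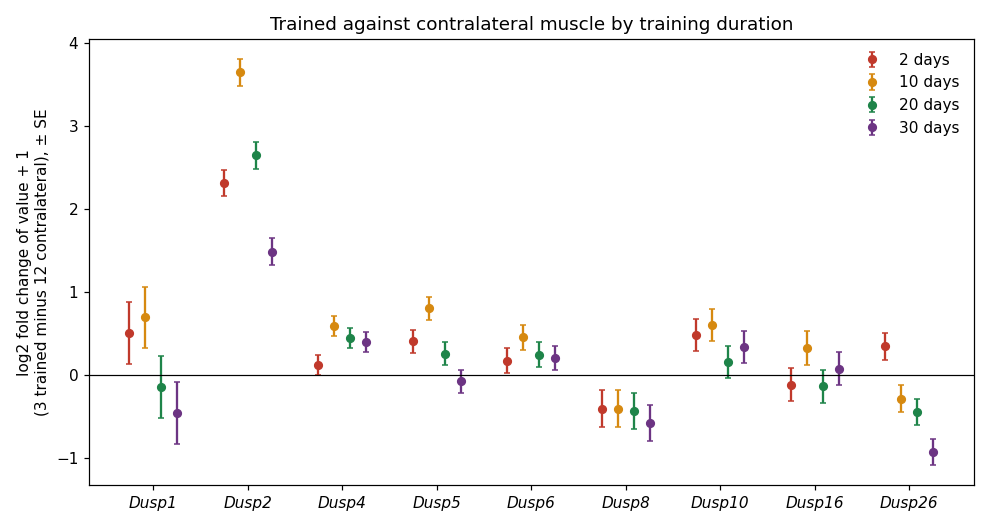
Log2 fold change of value + 1 for each member, the mean of 3 trained muscles minus that of 12 contralateral muscles, with bars of ± 1 SE and colours for 2, 10, 20 and 30 days. Dusp2 reaches 3.65 at 10 days, Dusp26 goes from 0.35 to -0.92, and Dusp8 is below 0 at each duration.

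The 9 members' median log2 fold change of value + 1 was 0.35, 0.60, 0.16 and 0.08 at 2, 10, 20 and 30 days. Over all genes tested it was -0.01, -0.03, -0.03 and -0.01. This scale understates the changes of Dusp2, Dusp4 and Dusp5. Dusp2 and Dusp5 were past an adjusted p of 0.05 at 2 days, where 28.9% of all genes were. Dusp2, Dusp4, Dusp5, Dusp6 and Dusp10 were past it at 10 days (28.9% of genes). Dusp2, Dusp4 and, in the lower direction, Dusp26 were past it at 20 days (21.4%) and at 30 days (20.6%). With the animal as a block, and with controls of the same duration, Dusp5 at 2 days and Dusp6 at 10 days were not past it. Dusp10 at 10 days was not past it with controls of the same duration. Without 10 days trained replicate 1 or replicate 2, neither Dusp6 nor Dusp10 was past it at 10 days. At 20 days Dusp26 was past it in the fit described here and with the animal as a block, and not under the other alternatives that kept all trained muscles. With the block, and with controls of the same duration, Dusp4 was not past it at 20 days. At 30 days Dusp4 was not past it without rescaling, where Dusp8 was, in the lower direction. Nor was Dusp4 past it without 30 days trained replicate 1 or replicate 2. The members were chosen with these contrasts known. Dusp2, Dusp4 and Dusp5 also passed the filter through trained muscles alone. Nothing is therefore read from these calls or their counts. Groups did not overlap for 1, 2, 2 and 2 members, beside 14.7%, 18.1%, 13.0% and 13.6% of all genes. Between trained durations they did not overlap for 3 members from 2 to 10 days, 2 from 2 to 20 days, 3 from 2 to 30 days, 2 from 10 to 20 days, 3 from 10 to 30 days and 2 from 20 to 30 days, where 18.2%, 21.3%, 31.2%, 12.2%, 25.1% and 10.5% of all genes did not.

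**Figure D4:**
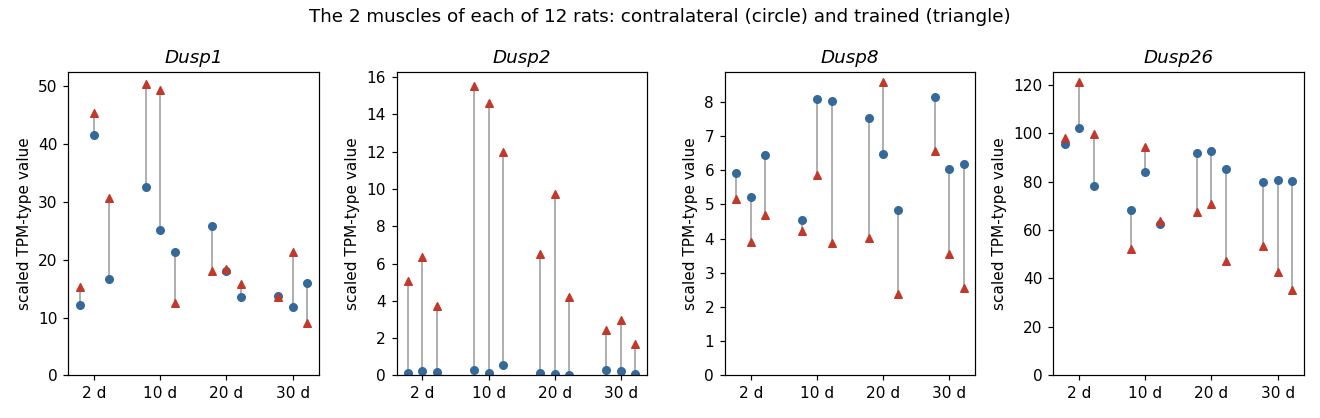
Scaled TPM of Dusp1, Dusp2, Dusp8 and Dusp26 in the contralateral (circle) and trained (triangle) muscle of each of 12 rats, joined by a line, by training duration. Dusp2 is higher in the trained leg of 12 rats, Dusp8 is lower in 11, and Dusp26 is lower in all 6 rats at 20 and 30 days.

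The same rats gave both legs, so log2(value + 1) was compared between them, as deviations from the mean of each duration in each limb. Across 12 rats, r between these deviations in the 2 muscles was 0.60 for Dusp26, 0.59 for Dusp5 and 0.52 for Dusp1. It was 0.50 for Dusp8 and 0.14 for Dusp2. The adjusted p was at least 0.339 for all 9 members (exact permutation test within durations, 1296 permutations, two-sided), and the lowest unadjusted permutation p was 0.0664 for Dusp5. Spearman's rho was 0.55, 0.50, 0.50, 0.46 and 0.13 for the same genes, with an adjusted permutation p of at least 0.55. Without the 2 farthest rats r was 0.48 for Dusp26, 0.63 for Dusp5, 0.22 for Dusp1, 0.39 for Dusp8 and 0.50 for Dusp2.

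The genes most like each member over all 24 muscles were found by Pearson's r among 5861 genes with a mean of at least 5, as a description in which the limb and duration differences are shared. Dusp2 was most like Vat1 (r = 0.97) and Tgm2, a transglutaminase (0.96). Vat1 had a contralateral mean of 5 and trained means of 14, 18.8, 14.3 and 11.9. Dusp26 was most like Pdlim7 and the transcription factor Mafa (both 0.88), and mean Mafa went from 19 in contralateral muscle to 3.89 after 30 days. Dusp1 was most like Ccn1, a matricellular immediate-early gene (0.81), and Rhob (0.80), and Dusp5 like Dtx3 (0.87) and Rgcc (0.84). Dusp4 was most like Cavin1 and Igf2 (both 0.85), Dusp6 like Atox1 (0.77) and LOC691807 (0.76), and Dusp8 like Med16 (0.83) and Wdtc1 (0.81). Dusp10 was most like Rab20 (0.82) and the actin-binding Xirp2 (0.78), whose mean was 257 in contralateral muscle and 755 after 10 days, and Dusp16 like Ids and Arhgef12 (both 0.85).

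The rest of the MAP kinase pathway was taken as 147 listed genes, of which 134 were in the table and 110 were tested. At 2, 10, 20 and 30 days 45, 43, 38 and 30 of them changed in limma's test (40.9%, 39.1%, 34.5% and 27.3%), beside the 28.9%, 28.9%, 21.4% and 20.6% of all genes. The transcription factors downstream of the kinases were the list with the most rises. Of 22 tested, 12, 13, 12 and 8 rose and 1, 0, 1 and 1 fell, with a median log2 fold change of 0.56, 0.58, 0.51 and 0.35. Egr1, an immediate-early zinc finger factor, had a mean of 4.28 in contralateral muscle and 140, 94.2, 77.9 and 48.6 in trained muscle. Fos, an AP-1 subunit, had 10.4 and then 202, 121, 84.7 and 56.0.

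Atf3, a stress-induced factor, had a mean of 5.89 in contralateral muscle and 285, 345, 154 and 122 in trained muscle. Fosb, another AP-1 subunit, had 0.495 and then 17.8, 13.4, 14.5 and 6.33. Each of these 4 genes rose at all durations (limma, adjusted p of at most 5.36e-05), with a largest log2 fold change of 5.71 for Atf3 at 10 days, 4.76 for Egr1, 4.30 for Fos and 3.63 for Fosb at 2 days. Their highest means stood at 2 days for Egr1, Fos and Fosb and at 10 days for Atf3 and Dusp2.

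**Figure D5:**
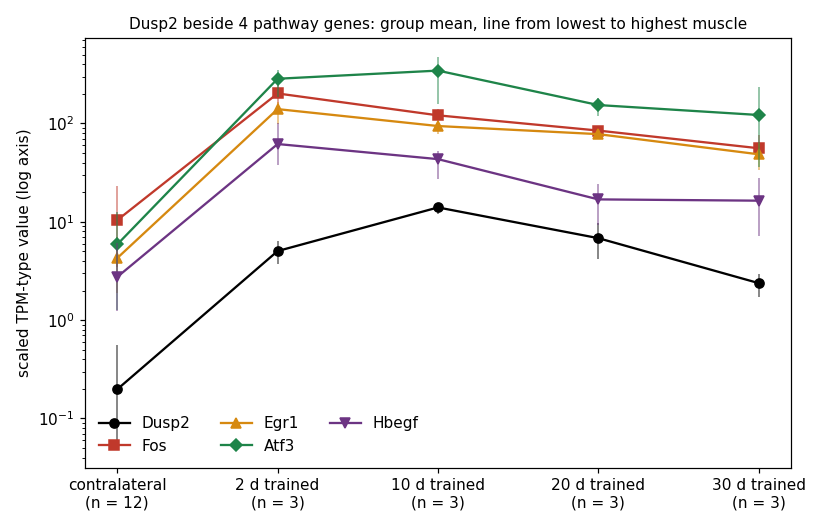
Mean scaled TPM (log axis) of Dusp2, Fos, Egr1, Atf3 and Hbegf in 12 contralateral muscles and in 3 trained muscles per duration, with vertical lines from the lowest to the highest muscle. Mean Fos, Egr1 and Hbegf are highest at 2 days, at 202, 140 and 61.8, and mean Dusp2 at 10 days, at 14. The Dusp2 line in contralateral muscle does not extend to its lowest value, 0.

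Of the growth factor ligands, 6 were tested and 3, 4, 3 and 2 rose and 0 fell (0, 1, 0 and 0 before adjustment in limma). Hbegf, a ligand of the EGF receptor, had a contralateral mean of 2.75 and trained means of 61.8, 43.4, 16.9 and 16.4, with a log2 fold change of 3.99 at 2 days (limma, adjusted p = 3.36e-09). Egf rose by 1.22 at 10 days (limma, adjusted p = 1.44e-05), and Pdgfb, which signals to pericytes and fibroblasts, by 0.88 at 10 and at 20 days. Pdgfa passed by 0.29 at 10 days and not with the animal as a block (limma, adjusted p = 0.0287 and 0.154).

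Of 6 receptor tyrosine kinases tested, 2, 3, 3 and 2 rose and 0 fell (2, 3, 3 and 3 higher and 0 lower by limma's p before adjustment). Pdgfrb rose by 0.83 and Fgfr1 by 0.69 at 10 days (limma, adjusted p = 3.80e-05 and 0.000167). The 4 fibroblast markers summed to 52.2 to 169 in contralateral muscles and 155 to 509 in trained ones, and their part in these values was not tested.

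Among 9 MAP kinases tested, 1, 1, 1 and 0 rose and 3, 2, 4 and 2 fell. Mapk14, which encodes p38 alpha, a substrate of several members, fell by 0.54, 0.61, 0.45 and 0.47 on the log2 scale (limma, adjusted p of at most 0.000233), from a contralateral mean of 41.4 to trained means of 28.2, 26.8, 30.1 and 29.6. Mapk9, which encodes a JNK, fell by 0.58 at 20 days (limma, adjusted p = 0.00023). Mapk3, which encodes an ERK, rose by 0.60 at 20 days (limma, adjusted p = 9.04e-05).

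Of 7 MAP kinase kinases, 0, 1, 0 and 1 rose, in both cases Map2k6, while by limma's p before adjustment 2, 1, 0 and 2 were higher and 0 lower. Of 18 kinases one step further up, 4, 5, 2 and 2 rose and 3, 4, 3 and 4 fell. Map3k14 rose by 1.26 at 20 days and Map3k7 by 0.88 at 10 days, whereas Map3k10 fell by 0.97 at 30 days (limma, adjusted p of at most 0.000329).

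Of 9 kinases activated by MAP kinases, 1, 1, 0 and 0 rose and 4, 2, 2 and 1 fell. Mapkapk5 fell by 0.50 at 30 days (limma, adjusted p = 0.000873). Rps6ka2 fell by 0.62 at 2 days (limma, adjusted p = 0.000861, and 0.00479 with the animal as a block). It fell by 0.42 at 10 days, a call lost with the animal as a block (limma, adjusted p = 0.0192 and 0.216). Of 5 Sprouty and Spred inhibitors, which act as feedback on receptor signalling like the phosphatases, 1 fell at 2 days (Spry1) and 1 rose at 10 days (Spred1), whereas 20 and 30 days had 0 calls in limma (0 and 2 before adjustment). Of 6 scaffolds, 0, 0, 1 and 1 rose and 1, 1, 1 and 0 fell.

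Of 13 other dual-specificity phosphatases tested, 4, 0, 1 and 1 rose and 2, 4, 2 and 4 fell. Dusp27, an atypical relative abundant in muscle, rose by 0.81 at 2 days (limma, adjusted p = 1.81e-05), from a contralateral mean of 31.8 to 57.7. Dusp13 rose by 0.56 at 2 days and fell by 0.46 at 30 days (limma, adjusted p = 0.00104 and 0.00808), the latter with an adjusted p of 0.0967 with the animal as a block in limma. Dusp28 fell by 0.60 at 2 days (limma, adjusted p = 0.000703). Mean Dusp13 was 70.1 in contralateral muscle and 106, 69.1, 58.5 and 50.7 in trained muscle, set beside 83.4 and then 106, 70.0, 61.8 and 43.8 for Dusp26.

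Of 9 phosphatases of other families that act on MAP kinases, 1, 0, 0 and 0 rose and 2, 1, 2 and 1 fell. Ppm1a, a PP2C phosphatase, fell by 0.64 at 20 days (limma, adjusted p = 9.81e-05). Ppp2cb, a catalytic subunit of PP2A, fell by 0.49 at 20 days (limma, adjusted p = 0.0104, and 0.053 with the animal as a block).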

How the data were processed

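RNA sequencing of TA muscle was used for 12 trained and 12 contralateral muscles. The deposited transcript table was treated as TPM, since all 24 columns sum to 634431. The authors aligned reads with STAR to rn6 in Partek Flow, with DESeq2 also named in their processing notes. Their methods name median-of-ratios normalization, which equal totals do not show. A smaller deposited gene table and a table of the authors' own comparisons (fold changes and p-values) were not used. Transcripts (20027) were summed per gene symbol and rescaled by median-of-ratios factors from 16230 transcripts above 0 in all muscles.

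Genes with at least 1 TPM in at least 3 muscles (11196 of 15273) were fitted on log2(value + 1) in limma 3.58.1 (R 4.3.3), with the 12 contralateral muscles as a single control group and 4 trained groups, two-sided, Benjamini-Hochberg adjusted over all genes, threshold 0.05. Levels, pairs and limbs were compared with permutation tests coded in numpy 2.4.6 (exact, or 100000 resamples for pairs), with ranks from scipy 1.17.1. The fit was tested on simulated data in which each muscle was drawn independently. That test therefore does not check the pairing of muscles within a rat. Both muscles of a rat carry its number in the labels, and their deviations from group means had a median r of 0.174 (12 pairs, 8 over 0.1) against -0.01 between rats. The 3 samples per group are separate rats, and no 2 of 276 sample pairs held identical values.

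The members and gene lists were chosen with earlier results of these data known. From each pathway list at most 4 genes were named: those with the largest change at a duration where they passed with all 3 trained muscles outside the contralateral range and a mean of at least 5, and for each member the 2 genes with the highest r. The values of 1 gene that met this rule are not reported here. Motifs, Spry1, Spred1 and Map2k6 were added after values were seen. Alternatives were the deposited values without rescaling, a pseudocount of 0.1, no filter and the main transcript alone. Others were controls of the same duration, the animal as a block, and leaving out 1 library. For the fit, each trained library and replicate 1 of the 30 days contralateral group were left out in turn. For the contralateral F test, each contralateral library was. Member coordinates are on Rnor_6.0, and promoter sequences and motif shares are from RefSeq on GRCr8.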

Additional observations from a re-analysis of the deposited data

Results flagged for a closer look

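Of the 24 pathway genes that met the naming rule, 7 differed between 30 and 2 days of training. The test was the direct limma contrast of the trained muscles, and its result drew attention to these 7. That contrast called 22 of the 110 tested pathway genes (20.0%) and 1677 of all 11196 genes. The 24 were picked for their largest trained-against-contralateral changes, and the contrast reuses the same trained muscles. The count of 7 is therefore not read as a result. The log2 difference, 30 minus 2 days, was -1.9 for Hbegf (adjusted p = 0.00327), -1.81 for Fos (0.0127), -1.51 for Egr1 (0.00153) and -1.31 for Fosb (0.000352). It was -1.02 for Dusp13 (adjusted p = 0.000113), -0.95 for Dusp27 (0.000246) and -0.67 for Ppp2cb (0.00919). The fit with the animal as a block answers another question, since no rat was trained for both durations: it compares the trained-minus-contralateral change at 30 days with that at 2 days. In limma this difference of changes was -0.87 for Dusp13 (adjusted p = 0.0357), -0.86 for Dusp27 (0.0639), -0.74 for Ppp2cb (0.0633), -1.28 for Hbegf (0.0912), -0.94 for Fosb (0.127), -0.81 for Egr1 (0.29) and -0.76 for Fos (0.557).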

How the results depend on the processing

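No member changed sign where its value was past the threshold. The order of levels, and the 8 differences between neighbours, held without rescaling, with a pseudocount of 0.1 and with the main transcript alone. Without rescaling, 4 members were past the threshold at 2 days, the trained comparisons called 3294 (30 against 2 days), 43 (20 against 10), 2071 (30 against 10) and 9 genes (30 against 20), of which 7.6%, 7.0%, 2.4% and 0.0% were higher, beside 1677, 19, 441 and 4 genes and 47.2%, 21.1%, 42.0% and 25% with it, and 1 member pair passed. With a pseudocount of 0.1 the last 3 gave 1, 282 and 0. With controls of the same duration, 1, 3 and 1 members were past it at 2, 10 and 20 days, 2007, 1589 and 1121 genes changed at 10, 20 and 30 days, and 23 and 16 pathway genes at 20 and 30 days, with fewer control muscles per contrast. With the animal as a replicate block, 1 member was past it at 2 days, and 1377 genes changed at 30 days. Between durations this block compares changes within rats, a different quantity from the trained muscles alone, and it called 7 (10 against 2), 194 (20 against 2), 314, 1, 9 and 0 genes. The contralateral F test called 3 genes with no filter and 4 without replicate 1 of the 30 days contralateral group, a library left out after the data were seen. Without the 2 farthest muscles 1 member pair passed.

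For the comparisons of trained muscles, 13 libraries were left out 1 at a time. These were the trained libraries and replicate 1 of the 30 days contralateral group, and no other contralateral library. At 2, 10, 20 and 30 days, genes changed numbered 1513 to 3505, 2147 to 3323, 1734 to 2485 and 1472 to 2440. Members past the threshold numbered 1 to 4, 3 to 6, 1 to 4 and 2 to 4. Pathway genes changed numbered 27 to 46, 31 to 46, 25 to 39 and 19 to 36. Trained libraries moved these by over 1.5 times: at 2 days replicate 2 (1513 genes, 27 pathway genes), and for members replicate 1 (4) and replicates 2 and 3 (1 each); at 10 days replicate 1 (2147 genes, 3 members); at 20 days replicate 1 (1 member) and replicate 2 (25 pathway genes); at 30 days replicate 2 (1472 genes, 19 pathway genes) and replicate 3 (1492 genes). Between trained durations the ranges were 66 to 488 (10 against 2), 336 to 1328 (20 against 2), 724 to 2134 (30 against 2), 2 to 95 (20 against 10), 110 to 554 (30 against 10) and 0 to 9 genes (30 against 20), each moved by several trained libraries, for 20 against 10 days also by libraries of other durations (78 genes without 2 days replicate 1, 3 without 30 days replicate 1 and 12 without 30 days replicate 2). The contralateral test, with each contralateral library left out in turn, gave 0 members and 0 to 12 genes. The count of genes was lowest without replicate 3 and highest without replicate 2 of the 2 days contralateral group. The causes of these differences were not tested. The TPM hold no counts, so no counting interval is given for Dusp2, Dusp4 and Dusp5 in contralateral muscle, all under 1.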
